A study of Rattus norvegicus with 4 samples.

Results

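Integrin subunits were followed in rat aortic smooth muscle cells exposed to an inflammatory cytokine or to a growth factor. The 9 genes were Itga1, Itga5, Itga7, Itga8, Itga11, Itgav, Itgb1, Itgb3 and Itgb5, taken by name: every probe set annotated to exactly 1 of these symbols was used. They had 17 probe sets, out of 31099 on the array, and are 9 of the 14218 genes that the array measures through probe sets with 1 symbol. All 4 arrays carried RNA of aortic smooth muscle cells in culture, from Sprague-Dawley rats; the cells were confluent after 3 days with serum and had then spent 3 days without it. The IL-1b array came from cells given interleukin-1b at 2.5 ng/mL for 24 h, and its vehicle array from cells given 0.1% albumin (BSA) with 10 mM acetic acid. The PDGF-DD array came from cells given the platelet-derived growth factor PDGF-DD at 30 ng/mL for 24 h, and its vehicle array from cells given 0.01% BSA. The sources used here give neither the age and sex of the rats nor the number of cell isolates. Where 4 intensities of a probe set follow each other, they stand in array order: the vehicle of IL-1b, IL-1b itself, the vehicle of PDGF-DD, then PDGF-DD itself.

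Integrins are receptors made of an alpha and a beta chain, which span the membrane and tie the extracellular matrix to the actin cytoskeleton. The beta1 chain pairs with many alpha chains, among them the collagen receptors alpha1 and alpha11, the laminin receptor alpha7, and alpha5 and alpha8, which bind fibronectin and other proteins that carry the RGD sequence. The alphav chain pairs with beta1, beta3 and beta5, among others, to bind vitronectin, fibronectin and osteopontin. In the artery wall, integrins hold smooth muscle cells to collagen and laminin, and the set of subunits is known to differ between contractile and growing cells.

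Each group was 1 array, so no difference has a replicate check and no p-value is given; the number of arrays limits the precision. Intensities are MAS5 values, scaled to a common trimmed mean, and are not compared between probe sets. A floor was set at an intensity of 28.08, the 40th percentile of all values, and ratios were taken after values under the floor were raised to it. A difference was counted when it was at least 2-fold, and the share of all measured genes that far apart in the same direction is given as the background. Where a gene has several probe sets, the one with the highest mean log2 intensity stands for it.

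With IL-1b, Itga11, Itga8 and Itgb3 were at least 2-fold lower than with its vehicle, and 0 of the 9 subunits were that much higher. The 3 of 9 stand beside 5.42% of all measured genes that were at least 2-fold lower in this comparison, and the 0 of 9 beside 6.15% that were at least 2-fold higher. With PDGF-DD, Itga11 and Itga8 were at least 2-fold lower than with its vehicle, 2 of 9 beside 4.67% of all genes, and again 0 of 9 were higher, beside 4.24%. The median log2 ratio of the 9 subunits was -0.24 with IL-1b and -0.38 with PDGF-DD, against 0.02 and 0.01 over all measured genes. The range ran from -3.02 to 0.69 with IL-1b and from -4.06 to 0.40 with PDGF-DD.

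**Figure D1:**
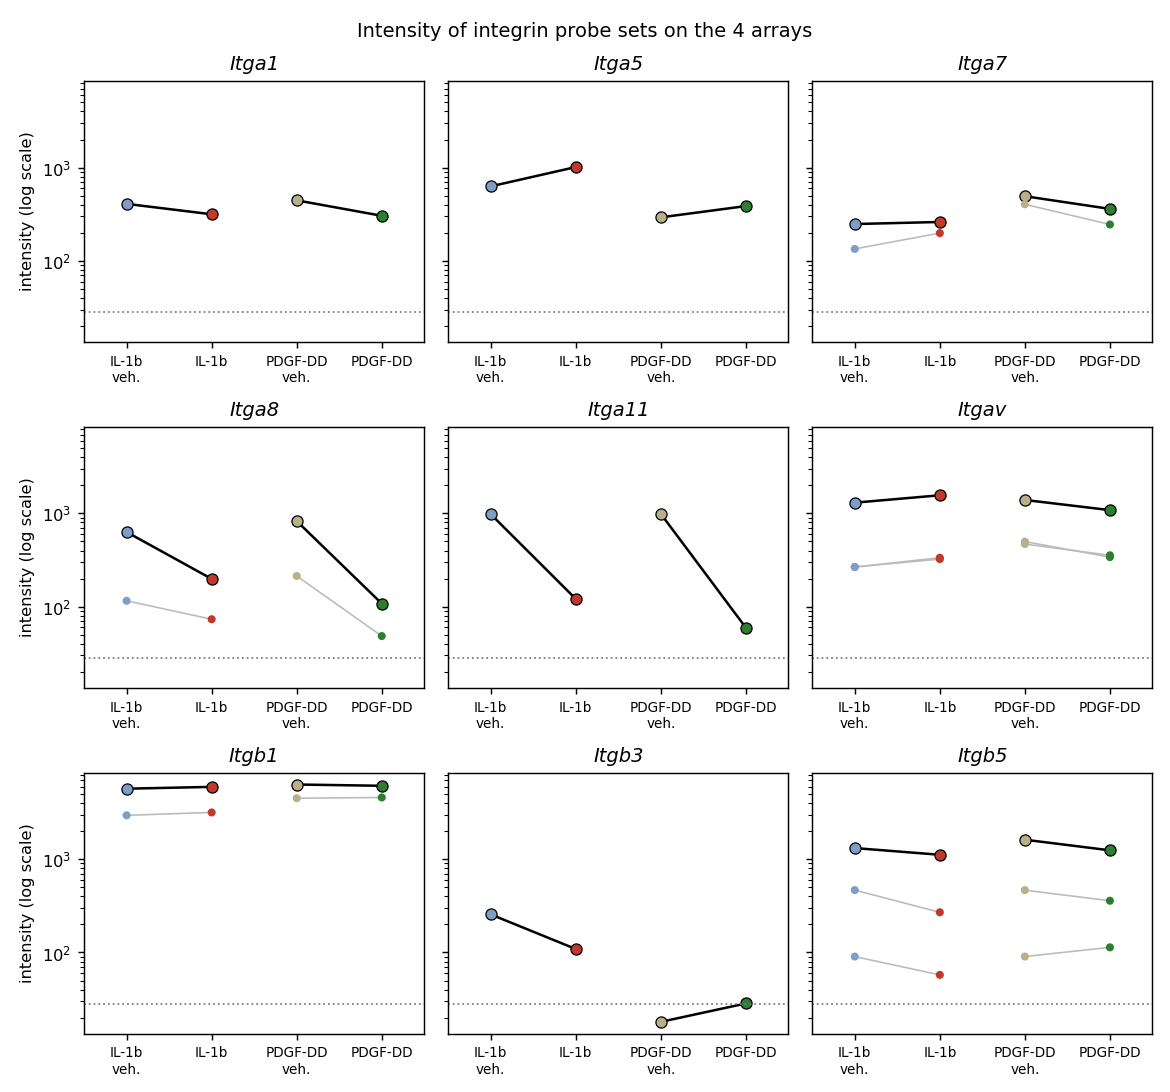
Scaled intensity (log axis, before the floor was applied) of the integrin probe sets above the floor on at least 1 array, on each array, every factor beside its vehicle. Large outlined points joined in black are the probe set that stands for the gene, and small points are other probe sets. The dotted line is the floor of 28.08. Itga11 and Itga8 lie lower on both treated arrays, and Itgb1 differs little within each pair. Itgb3 lies under or beside the floor on the arrays of the PDGF-DD pair.

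Among the collagen receptors, Itga11 differed the most. Its intensity was 983.6, 121.2, 990.2 and 59.57 in array order. The vehicle arrays were close to each other and both treated arrays lay below them. Itga11 was 8.11-fold lower with IL-1b, a log2 ratio of -3.02 that 0.384% of all measured genes matched or went below. It was 16.6-fold lower with PDGF-DD (log2 ratio -4.06, matched or passed by 0.069% of genes). Set against the other vehicle array instead, the log2 ratios were -3.03 and -4.05. Itga11 had 1 probe set, so no other probe set bears on it. Fewer cells of a kind and less of a transcript per cell cannot be told apart in bulk RNA, here and for the other genes.

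Itga1, the other collagen-binding alpha chain of the set, differed little. Its intensities were 408.6, 316.0, 445.8 and 304.6 in array order. Both treated arrays were lower than both vehicle arrays, by 1.29-fold with IL-1b and 1.46-fold with PDGF-DD, less than the 2-fold rule asks. The median absolute difference of all genes was 1.22-fold and 1.24-fold in these comparisons.

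Itga8, an RGD-binding alpha chain that is prominent in contractile vascular smooth muscle, was lower with both factors. Its leading probe set had intensities of 631.4, 198.7, 828.7 and 108.0 in array order. The treated arrays lay below both vehicle arrays. This made Itga8 3.18-fold lower with IL-1b and 7.67-fold lower with PDGF-DD, with log2 ratios of -1.67 and -2.94. Its other probe set, at 115.7, 73.37, 213.4 and 48.42 in the same order, had the same direction with smaller ratios: 1.58-fold lower with IL-1b, under 2-fold, and 4.41-fold lower with PDGF-DD. Against the other vehicle array, the leading probe set gave -2.06 with IL-1b and -2.55 with PDGF-DD.

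Itga5, the fibronectin receptor alpha chain, went the other way from Itga8. It had an intensity of 629.6 with the IL-1b vehicle and 1014 with IL-1b, and of 293.0 with the PDGF-DD vehicle and 387.0 with PDGF-DD. Each factor array was thus higher than its own vehicle, by 1.61-fold and 1.32-fold, both under 2-fold. The vehicle arrays differed more than that, with Itga5 2.15-fold lower in the vehicle of PDGF-DD. Against the other vehicle array, Itga5 was 3.46-fold higher with IL-1b, the same direction, and 1.63-fold lower with PDGF-DD, the opposite one.

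Itgav, the alpha chain of the vitronectin receptors, was measured by 3 probe sets and stayed within 2-fold on all of them. The leading one had intensities of 1304, 1565, 1394 and 1085 in array order. The 3 probe sets gave log2 ratios between 0.26 and 0.34 with IL-1b and between -0.55 and -0.36 with PDGF-DD. They were less alike between the vehicle arrays, where the log2 ratios (vehicle of PDGF-DD over that of IL-1b) ran from 0.10 to 0.90.

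Itga7, the laminin receptor alpha chain of muscle, had 3 probe sets, of which 1 was at the floor on all arrays. The leading one had intensities of 248.4, 261.4, 493.8 and 360.9 in array order. Both arrays of the PDGF-DD pair were above both of the IL-1b pair. Within the pairs the differences were 1.05-fold higher with IL-1b and 1.37-fold lower with PDGF-DD. By the other measured probe set they were 1.48-fold higher and 1.65-fold lower. Against the other vehicle array, the leading probe set gave log2 ratios of -0.92 with IL-1b and 0.54 with PDGF-DD, the opposite directions. Between the vehicle arrays Itga7 was 1.99-fold higher in that of PDGF-DD, just under the 2-fold rule, and 3.01-fold higher by its other measured probe set.

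Itgb1, the common partner of the alpha chains above, had the smallest range of the 9 when the leading probe sets are compared. Its leading probe set lay at 5703, 5966, 6326 and 6128 in array order, so that the highest array was 1.11-fold above the lowest. The differences with IL-1b and PDGF-DD were 1.05-fold and 1.03-fold. Its other probe set differed by 1.07-fold and 1.02-fold within the pairs, but was 1.53-fold higher in the vehicle of PDGF-DD than in that of IL-1b. Beside a beta1 chain with these ratios, Itga11 and Itga8 had log2 ratios of -3.02 and -1.67 with IL-1b and of -4.06 and -2.94 with PDGF-DD.

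Itgb3, the beta chain of the alphav-beta3 vitronectin receptor and of the platelet fibrinogen receptor, had 1 probe set. Its intensity was 256.2, 109.0, 18.04 and 28.42 in array order. The PDGF-DD vehicle array lay under the floor and the PDGF-DD array beside it, so no fold is given for PDGF-DD. Itgb3 was 2.35-fold lower with IL-1b than with its vehicle (log2 ratio -1.23). It was at least 9.12-fold lower in the vehicle of PDGF-DD than in that of IL-1b, a larger difference than that seen with IL-1b, and 0.154% of genes had as low a ratio. Against the PDGF-DD vehicle array, IL-1b gave at least 3.88-fold higher Itgb3, the opposite direction.

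Itgb5, the beta chain of another alphav receptor for vitronectin, was within 2-fold by all 3 of its probe sets. The leading one had intensities of 1317, 1116, 1619 and 1246 in array order, 1.18-fold lower with IL-1b and 1.30-fold lower with PDGF-DD. The other probe sets were 1.73-fold and 1.57-fold lower with IL-1b. With PDGF-DD they differed in sign, with log2 ratios of -0.38 and 0.33.

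**Figure D2:**
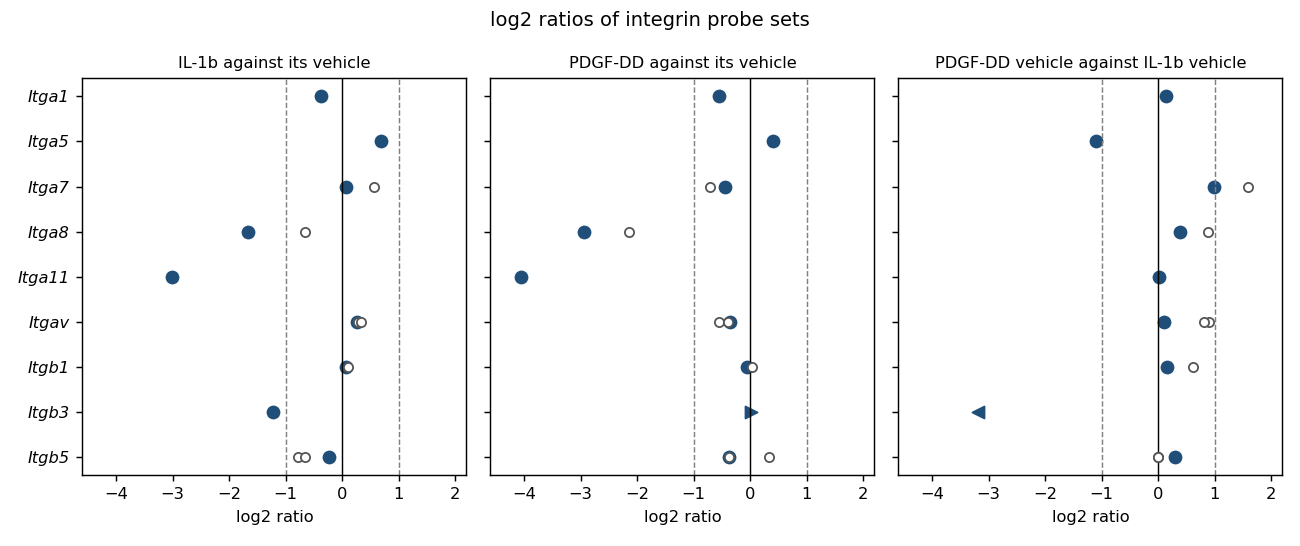
log2 ratio of each integrin probe set for each factor over its own vehicle (left and middle) and for the vehicle of PDGF-DD over that of IL-1b (right). Filled symbols are the probe set that stands for the gene, open circles other probe sets, triangles ratios with 1 array at the floor, and dashed lines mark 2-fold; the filled symbols of Itga11 and Itga8 lie left of the line with both factors, and at 0.01 and 0.39 between the vehicles, while the open circle of Itga8 is inside the line with IL-1b, at -0.66.

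Between the vehicle arrays, which held no factor, 2 of the 9 subunits were at least 2-fold lower in the vehicle of PDGF-DD, Itga5 and Itgb3, beside 4.67% of all genes, and 0 of 9 were at least 2-fold higher, beside 5.79%. These were not the subunits that were lower with both factors. With each factor set against the other vehicle array, IL-1b had 2 subunits lower, Itga8 and Itga11 (4.97% of genes), and 2 higher, Itga5 and Itgb3 (5.44%). PDGF-DD had 3 lower, Itga8, Itga11 and Itgb3 (10.3% of genes), and 0 higher (9.64%). Itga8 and Itga11 thus met the 2-fold rule with each factor against either vehicle array. The log2 ratio with IL-1b minus that with PDGF-DD, each over its own vehicle, was 1.03 for Itga11 and 1.27 for Itga8, so both were further below vehicle with PDGF-DD; this difference was not tested.

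**Figure D3:**
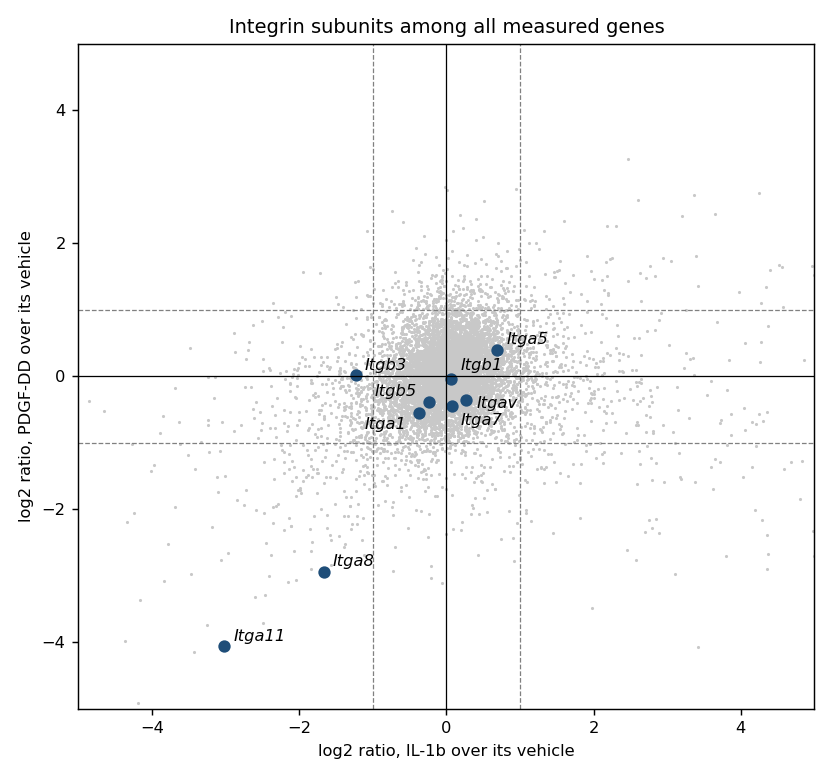
log2 ratio with IL-1b over its vehicle (horizontal) against log2 ratio with PDGF-DD over its vehicle (vertical) for 9936 genes measured in both comparisons (grey; 17 lie outside the axes), with the 9 integrin subunits in blue. Itga11 and Itga8 lie in the lower left, at least 2-fold lower with both factors, Itgb3 is past the line with IL-1b, and the other 6 lie inside the dashed 2-fold lines.

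The promoter windows of the subunits that were lower with both factors are shown with that of Itgb1, which moved little, so that their letters can be compared. They are the 250 bases before the annotated start in the RefSeq table of build GRCr8, read along the gene's strand, and 7 of the 9 subunits had an entry; Itga7 and Itgb3 were without one. Itga11 is at chr8:72041182-72041431 on the plus strand, Itga8 at chr17:80410634-80410883 on the minus strand and Itgb1 at chr19:73602027-73602276 on the plus strand. Capitals mark matches, on either strand, to the GC box (GGGCGG) and to the MCAT element (CATTCC).
Itga11: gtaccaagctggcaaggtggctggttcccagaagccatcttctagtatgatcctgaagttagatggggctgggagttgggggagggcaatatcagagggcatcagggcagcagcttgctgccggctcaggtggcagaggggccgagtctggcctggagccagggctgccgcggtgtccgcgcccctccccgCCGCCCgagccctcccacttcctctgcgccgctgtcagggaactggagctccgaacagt
Itga8: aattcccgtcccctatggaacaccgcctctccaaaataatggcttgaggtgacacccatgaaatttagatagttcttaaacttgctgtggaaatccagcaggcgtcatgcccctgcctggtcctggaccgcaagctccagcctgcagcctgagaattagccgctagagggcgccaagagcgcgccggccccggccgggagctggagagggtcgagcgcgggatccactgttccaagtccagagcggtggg
Itgb1: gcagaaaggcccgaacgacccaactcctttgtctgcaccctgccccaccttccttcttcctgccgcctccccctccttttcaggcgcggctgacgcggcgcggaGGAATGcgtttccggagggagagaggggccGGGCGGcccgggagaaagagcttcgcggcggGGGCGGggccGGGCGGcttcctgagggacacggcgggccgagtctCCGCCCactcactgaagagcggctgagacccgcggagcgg

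The 6 motifs named here were searched on both strands. A CArG box, the element of serum response factor in contractile genes, was found in 0 of the 7 windows and in 1.5% of 27457 promoter windows of the same length. The AP-1 element (TGANTCA) was in 0 of 7 and in 6.39% of all windows, and the TATA box (TATAAA) and CCAAT box (CCAAT) were in 0 of 7, against 13.1% and 34.2%. GC boxes stood in 4 of 7 windows, those of Itga5, Itga11, Itgav and Itgb1, against 32.3% of all; Itgb1 had 4 of them, Itga11 had 1 and Itga8 had 0. The MCAT element was in that of Itgb1 alone, against 11.8% of all windows. The GC content was 65.2% for Itga11, 59.6% for Itga8 and 71.2% for Itgb1, with a median of 52.0% over all windows. A match is a match of letters in these windows only.

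The genes with the most similar pattern over the 4 arrays were found for the 3 subunits of the widest range, Itga11, Itgb3 and Itga8, by the Euclidean distance between log2 intensities centred on each gene's mean, among 10885 genes that exceeded the floor on 1 array or more. Values under the floor were raised to it first. With 4 arrays this is a description. Nearest to Itga11 were Mylk (myosin light chain kinase; distance 0.64), Vwa1 (0.70), Actg2 (smooth muscle gamma-actin; 0.75), Lims2 (0.83) and Cnn1 (calponin; 0.88). Nearest to Itga8 were Akap5, a kinase anchoring protein (0.13), Palmd (0.34), Gadd45g (0.41), Mybpc2, a myosin-binding protein (0.41), and Pln, phospholamban, which restrains the calcium pump of the sarcoplasmic reticulum (0.46). Nearest to Itgb3 were Pou3f3, a transcription factor (0.19), Ctxn1 (0.28), the neuropeptide Y receptor Npy1r (0.36), Nkd1, an inhibitor of WNT signalling (0.72), and Sult5a1 (0.72). Pou3f3 had intensities of 526.2, 225.3, 64.47 and 54.39 in array order, and thus was highest in the vehicle of IL-1b, as Itgb3 was. Npy1r was under the floor on both arrays of the PDGF-DD pair. Actg2, Akap5, Mybpc2, Pln and Nkd1 were under it on the PDGF-DD array. The distances of these genes thus rest in part on the floor. So do all the distances to Itgb3, which was under the floor in the vehicle of PDGF-DD.

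Of 17 other integrin subunits, 13 had a probe set with 1 symbol (Itga2, Itga4, Itga10 and Itgb8 were not analysed here). With IL-1b, 3 of the 8 measured were at least 2-fold lower and 0 higher, with a median log2 ratio of -0.60, beside 5.42% and 6.15% of all genes. With PDGF-DD, 0 of 6 were that far apart in either direction, with a median of 0.15, beside 4.67% lower and 4.24% higher of all genes. Itga6, a laminin receptor alpha chain, had intensities of 228.4, 43.20, 238.1 and 253.9 in array order, 5.29-fold lower with IL-1b and 1.07-fold higher with PDGF-DD. It was low on the IL-1b array alone; its other measured probe sets gave smaller log2 ratios with IL-1b, of -0.99 and at most -0.82. Itga9 (232.3, 26.79, 45.18 and 9.809 in the same order) was at least 8.27-fold lower with IL-1b, and Itgb6 (330.2, 56.03, 53.50 and 24.12), a chain of a receptor that activates latent TGF-beta, was 5.89-fold lower. Both were highest in the vehicle of IL-1b, as Itgb3 was, and were 5.14-fold and 6.17-fold lower in the vehicle of PDGF-DD than there. A further probe set of Itga9 was at the floor on all arrays. Of the chains found on leukocytes, Itgam, Itgax and Itgb7 were at the floor on all 4 arrays, as was Itgb4. Itgb2 (47.27), Itgal (37.88) and Itgad (38.41) were above it in the vehicle of IL-1b alone, and Itgae was above it on every array, at 97.53, 98.43, 98.16 and 145.5.

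Integrin adaptors and other adhesion proteins, here called the adaptor list, had median log2 ratios below 0 with both factors. Of 22 measured, 5 were at least 2-fold lower with IL-1b and 0 higher (median log2 ratio -0.70), and 4 were lower and 1 higher with PDGF-DD (median -0.51). The shares of all genes were 5.42% lower and 6.15% higher with IL-1b, and 4.67% and 4.24% with PDGF-DD, so the 1 of 22 is near the background. Lims2 (PINCH2), a partner of integrin-linked kinase, had intensities of 2178, 229.0, 1058 and 79.00 in array order. It was 9.51-fold lower with IL-1b and 13.4-fold lower with PDGF-DD, and 2.06-fold lower in the vehicle of PDGF-DD than in that of IL-1b. Its paralogue Lims1 stayed at log2 ratios of -0.14 and 0.02. Tns1 (tensin 1), which binds beta chain tails, was 3.10-fold lower with IL-1b and 2.86-fold lower with PDGF-DD. Against the PDGF-DD vehicle array, Tns1 with IL-1b was 1.83-fold lower, under 2-fold, and 2.92-fold lower by its other probe set. Itgb1bp2 (melusin), a muscle protein that binds the beta1 tail, was at least 2.14-fold lower with IL-1b and at least 2.25-fold lower with PDGF-DD.

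The other genes of the adaptor list past 2-fold differed with 1 factor. Vcl (vinculin) was 2.49-fold lower and Tns3 2.35-fold lower with IL-1b, and the focal adhesion kinase relative Ptk2b was 2.39-fold lower with PDGF-DD. Of the other 2 probe sets of Vcl, 1 was also past 2-fold with PDGF-DD (log2 ratio -1.08). Against the PDGF-DD vehicle array, Vcl with IL-1b was 1.7-fold lower, under 2-fold, and 2.56-fold and 4.25-fold lower by its other probe sets. Parvb (beta-parvin) was the adaptor that was higher, at 320.2 with PDGF-DD against 74.93 with its vehicle, 4.27-fold. Its other probe sets gave log2 ratios of 1.54 and 0.32. Between the vehicle arrays, Parvb was at least 2.67-fold higher in that of PDGF-DD by its leading probe set. The others gave log2 ratios of -0.05 and at least 0.56 there. By their leading probe sets, the talins, kindlin-2 (Fermt2) and Ilk were within 2-fold of their own vehicle. Tln1 had log2 ratios of -0.68 with IL-1b and -0.99 with PDGF-DD, and Ilk -0.72 and -0.35. Those of Fermt2 were -0.86 and -0.64, and those of Tln2 0.24 and 0.86. Against the IL-1b vehicle array, PDGF-DD gave 2.37-fold lower Tln1, 2.08-fold lower Fermt2 and 2.09-fold higher Tln2. In that comparison 11 of 22 on the list were at least 2-fold lower and 2 higher, beside 10.3% and 9.64% of all genes.

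Among 20 measured matrix ligands of integrins, 1 was at least 2-fold lower and 3 higher with IL-1b (median log2 ratio 0.02), and 3 were lower and 0 higher with PDGF-DD (median -0.41). The 1 of 20 lower with IL-1b is near the background of 5.42%; the other shares of all genes were 6.15% higher with IL-1b, and 4.67% lower and 4.24% higher with PDGF-DD. Lama4, a laminin chain of vascular basement membrane, was 6.52-fold higher with IL-1b (327.1 against 50.19) and at least 5.06-fold lower with PDGF-DD (19.80 against 142.1); the vehicle arrays differed by 2.83-fold, with the higher value in that of PDGF-DD, and its other probe set was at the floor on all 4 arrays. The basement membrane collagens Col4a1 and Col4a2 were 2.66-fold and 2.88-fold lower with PDGF-DD, and 1.43-fold and 1.30-fold lower with IL-1b. With IL-1b, Tgfb1 was 2.67-fold higher, Tnc (tenascin C) 2.12-fold higher and Lamb2, a laminin beta chain, 2.24-fold lower; Tnc and Lamb2 also differed between the vehicle arrays, by 3.58-fold higher and 2.06-fold lower in that of PDGF-DD. Fn1, the fibronectin ligand of alpha5 and alpha8, had log2 ratios of 0.17 and -0.37, and Spp1, osteopontin, -0.03 and -0.30. Col1a1, a ligand of alpha11 and alpha1, had -0.10 and -0.60.

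**Figure D4:**
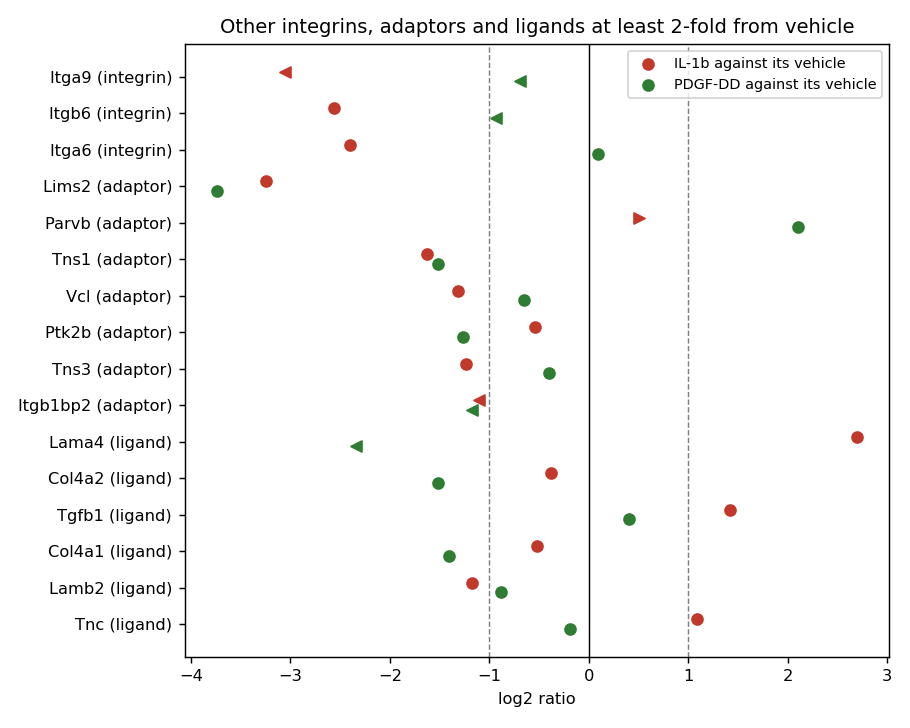
log2 ratio with IL-1b (red) and PDGF-DD (green), each over its vehicle, for the other integrin subunits, adaptors and matrix ligands that were at least 2-fold from vehicle with either factor on the probe set that stands for the gene. Triangles are ratios with 1 array at the floor and dashed lines mark 2-fold; Lims2 lies at -3.25 and -3.74, while Lama4 lies at 2.70 with IL-1b and at -2.34 with PDGF-DD.

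The cells carried smooth muscle transcripts on all 4 arrays: 8 of 8 markers (Acta2, Myh11, Tagln, Cnn1, Smtn, Lmod1, Des, Myocd) were above the floor with the IL-1b vehicle and 7 of 8 on each of the other arrays. Like Itga8 and Itga11, these markers were lower with both factors, at least 2-fold in 7 of 8 with IL-1b (5.42% of all genes) and in 6 of 7 measured with PDGF-DD (4.67%), with summed intensities of 28040, 8614, 20190 and 4701 in array order. Between the vehicle arrays 3 of 8 markers were at least 2-fold lower in that of PDGF-DD (4.67% of all genes; median log2 ratio -0.88), where Itga8 and Itga11 had log2 ratios of 0.39 and 0.01. Of 5 measured fibroblast and adventitial markers, IL-1b had 3 at least 2-fold higher (Pdgfra, Lum and Dpt; 6.15% of all genes), with summed intensities of 2288, 7845, 1363 and 652.3 in array order. Of the leukocyte markers Ptprc, Cd68, Csf1r and Itgam were at the floor on all arrays, while Cd14 was at 1121, 1333, 1220 and 1117 in array order, Lyz2 was at 1305 with IL-1b and under the floor elsewhere, Cd74 was at 105.6, 3379, 584.4 and 89.79, and the list's summed intensities were 1333, 6064, 1877 and 1254. Of 5 endothelial markers, Pecam1, Vwf, Kdr and Tie1 were at the floor on all arrays. Tek, at 40.02, 14.75, 11.7 and 28.76 in array order, was above it on 2. Of 8 skeletal and cardiac muscle markers, Myod1, Myh7 and Nppa were at the floor on all arrays, and the summed intensities were 11560, 698.7, 6951 and 489.9. At least 2-fold lower were 3 of 5 measured with IL-1b (5.42% of all genes) and 2 of 3 with PDGF-DD (4.67%). Tnnc1 was at 6597, 321.0, 3243 and 204.7 in array order, and Acta1 at 4782, 261.4, 3526 and 117.2. Myog was above the floor on every array, at 44.54, 56.76, 133.4 and 133.2, and Des and Ckm in the vehicle of IL-1b alone. The part of these markers in the integrin values was not tested. The intensity at the 3' end of a transcript over that at the 5' end tracks RNA integrity. In array order it was 1.58, 2.05, 1.26 and 1.37 for beta-actin and 1.22, 1.27, 1.11 and 1.07 for Gapdh. For hexokinase it was 3.58, 2.74, 2.39 and 2.77. The part of RNA integrity in the integrin values was not tested either. The 7 measured reference genes had 0 members past 2-fold in any of the comparisons and median log2 ratios of 0.05 with IL-1b and -0.18 with PDGF-DD.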

How the data were processed

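Total RNA was labelled with biotin and hybridised to 1 Affymetrix rat array per group. The authors deposited intensities per probe set on a linear scale, computed with MAS5, as the submitters' processing notes list; the sources used here give no version, scaling target or detection calls, so detection was judged from intensity alone. The 4 deposited columns shared a median of 53.3. Here each array was scaled to a common mean after trimming 2% at each end (factors between 0.951 and 1.03, the lowest for PDGF-DD), then floored and put on the log2 scale (Python 3.11.15, pandas 2.3.3). On each array 58.3% to 61.5% of probe sets exceeded the floor. Gene names came from the platform annotation of 2016: 20832 had 1 symbol, 436 several and 9831 none; all 9 members matched the GRCr8 RefSeq table by gene identifier. A ratio was measured where at least 1 of its arrays was above the floor. The scripts were tested on simulated data. Groups follow the sample titles. No test was run. The members and gene lists were chosen with earlier results of these data known. Outside the members, genes of the other integrin, adaptor and ligand lists are named when at least 2-fold from vehicle with either factor. Of the reference list only Gapdh is named, for its ratio of 3' to 5' intensity. Genes of nearest pattern were picked by distance, and cell type markers with a probe set are named whatever their fold. Lims1, Tln1, Tln2, Fermt2, Ilk, Fn1, Spp1, Col1a1 and the further subunits at or near the floor, with Itgae, were named after their values were seen. The 4 motifs besides CArG and AP-1 were added after the sequences were seen.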

Additional observations from a re-analysis of the deposited data

How the results depend on the processing

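The counts of subunits past 2-fold were recomputed with the deposited scaling, quantile normalization, floors at the 30th and 50th percentiles, the median of a gene's probe sets, 1.5-fold and 3-fold rules, and the other vehicle array. Itga8 and Itga11 were past the threshold with both factors under all of these settings. The count lower with IL-1b went from 3 to 2, without Itgb3, at 3-fold and with the other vehicle array, and the count lower with PDGF-DD went from 2 to 3, with Itgb3, with the other vehicle array. The count higher with IL-1b went from 0 to 1 (Itga5) at 1.5-fold and to 2 (Itga5, Itgb3) with the other vehicle array. The count higher in the vehicle of PDGF-DD than in that of IL-1b went from 0 to 1 (Itga7) with the deposited scaling, quantile normalization, the median of probe sets and at 1.5-fold; the count lower there went from 2 to 1 (Itgb3) at 3-fold. The log2 ratio of Itgb3 with IL-1b turned from -1.23 to 1.96 with the other vehicle array, whose Itgb3 intensity was under the floor. Of 152 recomputed log2 ratios of single subunits, 137 moved by less than 0.32, the median absolute difference between the vehicle arrays, 14 moved by more without a called value changing sign, and 1 reversed. Leaving out an array was not possible with 1 per group. No paired analysis was possible because each group holds 1 array. Signals near the floor, as for Itgb3 on the PDGF-DD arrays, limit what can be measured.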
